A study of Mus musculus with 12 samples.

Results

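The genes described here are 34 genes that mark Kupffer cells, the resident macrophages of the liver, and macrophages in general, taken by gene symbol from a list of names. Of these, 33 had a probe set on the array, each with exactly 1, among 18784 genes named by a single symbol. The 34th, Cd68, had no row and was skipped. RNA was measured in the livers of 12 mice with 1 Affymetrix whole-transcript array per mouse, and the 4 groups were KK males, KK females, C57BL/6J males and C57BL/6J females, with 3 mice in each. KK mice are an inbred line prone to obesity and poor insulin response. The strain entry of the KK mice reads KK/HIJ and the source entry KK/J. C57BL/6J is the common laboratory strain that served as the comparison. According to the labels, the chow-fed mice were 8 weeks old, had been single-housed over 3 days and had gone without food for 4 hours, and each liver was flushed with PBS before its large lobe was taken. No mouse carried an engineered allele or received a drug, as far as the labels say.

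Kupffer cells sit inside the liver sinusoids, where they take up bacteria, old red cells and debris from the blood. They depend on signalling through the CSF1 receptor and on the transcription factor PU.1, and in mice they carry surface proteins such as CLEC4F, VSIG4 and TIM4 that circulating monocytes lack. In whole liver their transcripts are a small part of the RNA, most of which comes from hepatocytes. The arrays read whole liver RNA, so fewer macrophages and less macrophage RNA per cell cannot be told apart in any value below.

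All values are log2 expression values, on which a difference of 1 is a doubling, and they can be set against each other for a gene between mice but not between genes. The interquartile range of the arrays lay between 2.64 (KK male 2) and 2.97 (KK female 1), their medians between 5.90 and 6.03, and arrays of a group correlated across probe sets at 0.992 to 0.996. The 3 measured Y-linked genes, which females lack, read 3.79 to 4.66 in the 6 females. That range is used here as a rough guide to the level of absent transcripts. It rests on 3 probe sets and is not a floor for every gene, since Fabp5 read 3.15 in C57BL/6J male 1. Hepatocyte genes, given as a check of the tissue, had a mean of 12.32 to 12.48 over their 12 genes on every array. Among the macrophage genes, Ccr2, the receptor that recruits monocytes, lay inside the range of absent transcripts on all 12 arrays (4.02 to 4.34), and Itgam and Cd14 reached into it on some. The defining Kupffer cell genes Clec4f (8.15 to 9.65), Vsig4 (8.51 to 10.84), Timd4 (6.94 to 9.09) and Cd5l (7.98 to 10.27) lay above that range on every array.

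The members were not equally high in every mouse of a group. KK female 1 had the highest value of the KK females for 30 of 33 members (31.1% of all probe sets), C57BL/6J male 2 the highest of the C57BL/6J males for 30 (28.8% of all probe sets), and KK male 3 the highest of the KK males for 26 (35.9% of all probe sets). The mean over the 33 members was 6.78, 6.79 and 7.05 in KK males 1, 2 and 3 and 8.07, 7.60 and 7.43 in KK females 1, 2 and 3. It was 7.07, 7.57 and 7.16 in C57BL/6J males 1, 2 and 3 and 7.60, 7.45 and 7.63 in C57BL/6J females 1, 2 and 3. The 3 KK males thus lay below every other mouse, while C57BL/6J male 2 lay among the females of its strain.

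**Figure D1:**
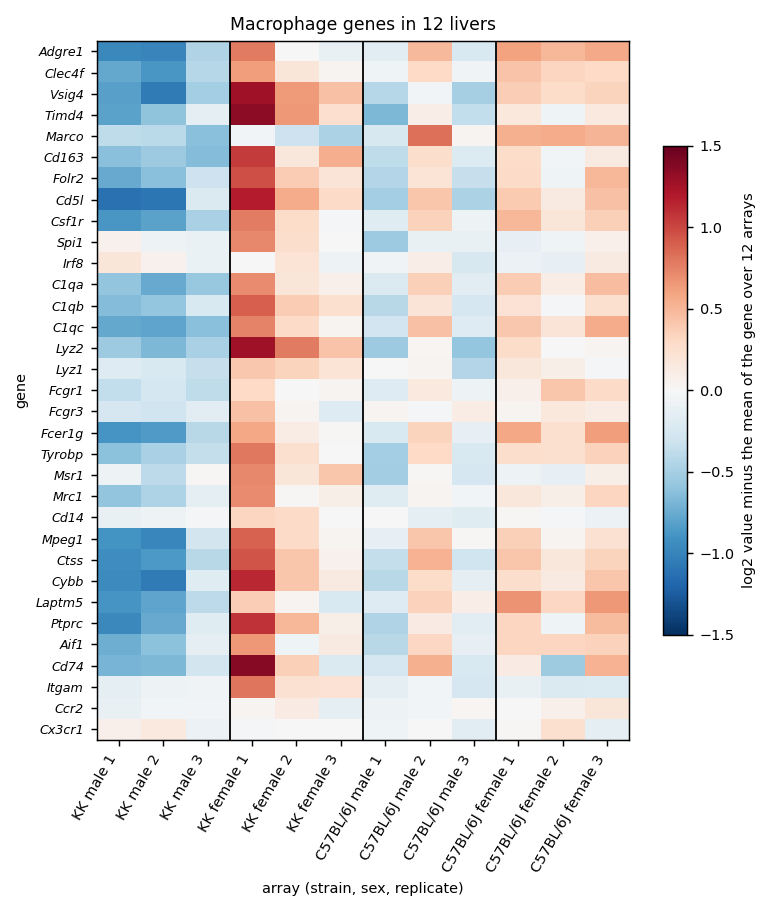
Macrophage genes (rows, ordered by role) on the 12 arrays (columns, by strain, sex and replicate). Colour gives the log2 value minus that gene's mean over the 12 arrays, red for higher and blue for lower; most rows are blue in the 3 KK males and reddest in KK female 1, while Irf8, Ccr2 and Cx3cr1 show little colour in any mouse.

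Within KK, males had lower macrophage transcripts than females across nearly the whole set. Of the 33 members 18 were called lower in KK males by limma (1.47% of all probe sets) and 0 higher (0.698% of all probe sets). At an unadjusted p under 0.05 there were 29 (15.7% of all probe sets), and 31 differences lay below 0 (41.3% of all probe sets). The 18 comprised Kupffer cell receptors, all 3 chains of complement C1q, both lysozymes and phagosome proteins, and their differences ran from -0.57 (Lyz1) to -1.58 (Vsig4). The members' median difference was -0.96, against 0.03 for all probe sets. The 3 males did not overlap the 3 females, and were lower, for 27 members (8.41% of all probe sets).

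The receptors that mark Kupffer cells were among the most different. Vsig4 encodes the complement receptor CRIg, which binds C3b-coated bacteria. It read 8.75, 8.51 and 9.06 in KK males, against 10.84, 10.21 and 10.01 in KK females. All males lay below all females, and the difference was -1.58 (SE 0.20, adjusted p = 0.0016). Clec4f, a C-type lectin receptor found on mouse Kupffer cells, read 8.25, 8.15 and 8.59 in KK males, against 9.65, 9.21 and 9.06 in KK females, a difference of -0.97 (SE 0.16, adjusted p = 0.00703). Timd4 encodes TIM4, a receptor for phosphatidylserine on dying cells. Its values were 6.94, 7.15 and 7.61 in KK males, against 9.09, 8.40 and 8.00 in KK females, and it fell by 1.26 (SE 0.26, adjusted p = 0.0292). Neither gene overlapped between the sexes of KK. Cd163, the scavenger receptor for haemoglobin bound to haptoglobin, read 7.43, 7.52 and 7.41 in KK males, against 9.11, 8.23 and 8.61 in KK females, and fell by 1.20 (SE 0.20, adjusted p = 0.00942). Folr2, the folate receptor of tissue macrophages, read 6.76, 6.89 and 7.20 in KK males, against 8.48, 7.89 and 7.71 in KK females, and fell by 1.07 (adjusted p = 0.0292). Every KK male lay below every KK female for both genes. Adgre1, which encodes an adhesion receptor long used as a general marker of mouse macrophages, fell by 1.03 (SE 0.24, adjusted p = 0.0488). It read 6.53, 6.50 and 7.04 in KK males, against 8.27, 7.50 and 7.38 in KK females, so KK male 3 came closest to the females. Cd5l, a secreted scavenger protein that supports macrophage survival, read 7.98, 8.01 and 8.88 in KK males, against 10.27, 9.65 and 9.38 in KK females, and fell by 1.48 (SE 0.30, adjusted p = 0.0258).

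Marco, a scavenger receptor that binds bacteria and particles, was an exception among the Kupffer cell receptors. It read 5.86, 5.84 and 5.62 in KK males, against 6.20, 5.93 and 5.77 in KK females. The sexes overlapped, and the difference of -0.19 (SE 0.21, adjusted p = 0.674) was not called.

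Csf1r encodes the receptor for CSF1 and IL-34, on which Kupffer cells depend. It read 7.60, 7.67 and 7.99 in KK males, against 9.24, 8.75 and 8.46 in KK females, and fell by 1.07 (SE 0.19, adjusted p = 0.0133). The lineage transcription factors among the members, Spi1 and Irf8, were not called. Spi1, the gene of PU.1, differed by -0.36 (adjusted p = 0.307). Irf8, which acts in monocyte development, differed by 0.00 (SE 0.11, adjusted p = 0.989). It read 6.63 to 6.91 in KK males, against 6.65 to 6.93 in KK females.

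The secreted products showed the same direction. C1qa, C1qb and C1qc encode the 3 chains of C1q, the recognition molecule of the classical complement pathway, which macrophages make, and they are direct neighbours on chromosome 4. They fell by 0.96, 0.99 and 1.09 in KK males, with adjusted p of 0.0169, 0.0196 and 0.015, and no male overlapped a female. C1qa read 8.20, 8.04 and 8.23 in KK males, against 9.51, 8.98 and 8.87 in KK females. C1qb read 7.68, 7.75 and 8.10 in KK males, against 9.23, 8.71 and 8.57 in KK females. C1qc read 8.06, 8.03 and 8.19 in KK males, against 9.57, 9.11 and 8.86 in KK females. For all 3 chains KK female 1 was the highest. Lyz2, the lysozyme gene of mouse myeloid cells, read 8.64, 8.51 and 8.70 in KK males, against 10.46, 9.97 and 9.62 in KK females, a 2.63-fold difference (-1.40 log2, SE 0.20, adjusted p = 0.00342). Its neighbour Lyz1, the lysozyme gene of Paneth cells, read 5.07, 5.03 and 4.91 in KK males, against 5.67, 5.59 and 5.46 in KK females, and fell by 0.57 (SE 0.11, adjusted p = 0.026). The 2 genes are close copies, so which of them the Lyz1 probe set reads is uncertain.

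**Figure D2:**
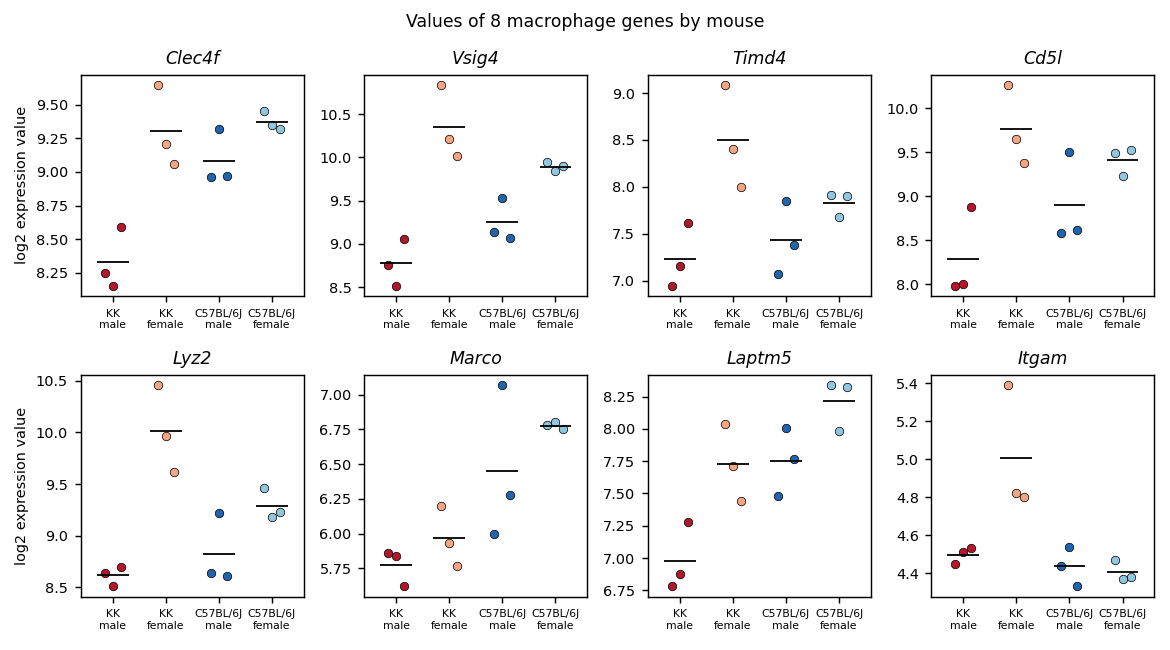
Log2 expression values (vertical axis) of 8 macrophage genes in each mouse (points, 3 per group) with the group mean (line), for KK males, KK females, C57BL/6J males and C57BL/6J females from left to right. The KK males are lowest for Clec4f and Vsig4, all KK mice but 1 lie below the C57BL/6J mice for Marco, and KK female 1 stands highest of all for Itgam.

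Of the antibody receptors and their adaptors, 1 gene passed the test. Fcer1g encodes the common gamma chain that carries the signalling motif for Fc receptors, and it read 6.73, 6.76 and 7.20 in KK males, against 8.19, 7.72 and 7.63 in KK females (-0.95, SE 0.19, adjusted p = 0.0241). No male overlapped a female. Its relative Tyrobp, which encodes the adaptor DAP12, differed by -0.83 (adjusted p = 0.063) and missed the threshold. The receptor genes themselves were not called, with Fcgr1 differing by -0.45 (adjusted p = 0.0641) and Fcgr3 by -0.33 (adjusted p = 0.233), and Fcgr3 overlapped between the sexes. Among phagosome genes, Mpeg1, which encodes a pore-forming protein of macrophages, read 7.49, 7.41 and 8.11 in KK males, against 9.27, 8.68 and 8.43 in KK females, and fell by 1.12 (adjusted p = 0.026). The cathepsin gene Ctss read 8.11, 8.18 and 8.63 in KK males, against 9.99, 9.46 and 9.11 in KK females, and fell by 1.21 (adjusted p = 0.0284). Cybb, the catalytic subunit of the phagocyte NADPH oxidase, read 7.29, 7.19 and 8.07 in KK males, against 9.38, 8.67 and 8.38 in KK females, and fell by 1.29 (adjusted p = 0.0308). Each of these 3 was lower in every KK male than in any KK female. Ptprc, the pan-leukocyte gene of CD45, read 6.04, 6.25 and 6.83 in KK males, against 8.09, 7.50 and 7.09 in KK females, and fell by 1.19 (adjusted p = 0.0361). Cd74, the invariant chain of class II antigen presentation, had the widest spread, with 6.80, 6.83 and 7.23 in KK males against 8.87, 7.86 and 7.28 in KK females, and its difference of -1.05 (SE 0.37, adjusted p = 0.193) was not called. Laptm5, a lysosomal membrane protein of blood cells, Aif1, Mrc1 (the mannose receptor), Msr1 (a scavenger receptor), Itgam and Cd14 also had no overlap, with differences of -0.28 to -0.75 and adjusted p of 0.0568 to 0.136.

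The genes of recruited monocytes were not called. Ccr2 read 4.05, 4.11 and 4.11 in KK males, against 4.20, 4.28 and 4.02 in KK females (-0.08, adjusted p = 0.642), within the range of absent transcripts. Cx3cr1, the fractalkine receptor, read 5.67, 5.74 and 5.51 in KK males, against 5.58, 5.60 and 5.60 in KK females (0.05, adjusted p = 0.824). Both genes overlapped between the sexes.

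The 18 calls rest on few mice. By limma 4 members were called without KK male 1 or without KK male 2, 5 without KK female 1, 6 when the KK arrays alone gave the spread, and 10 with the interquartile range of the arrays as a covariate; the direction held for each of the 18 in all of these. The interquartile range was 2.74, 2.64 and 2.87 in KK males 1, 2 and 3 and 2.97, 2.76 and 2.89 in KK females 1, 2 and 3, and its part in the difference beyond that covariate fit was not tested.

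In C57BL/6J the difference between the sexes had the same sign but was smaller, and no member passed the test. By limma 0 of 33 members were called (1.03% of all probe sets either way), and 6 had an unadjusted p under 0.05 (8.17% of all probe sets): Adgre1, Vsig4, Lyz2, Fcer1g, Laptm5 and Fcgr1. The differences lay below 0 for 32 of 33 members (47.3% of all probe sets), with Itgam at 0.03 as the exception, and their median was -0.32, against 0.01 for all probe sets. For 5 members, Adgre1, Clec4f, Vsig4, Aif1 and Mrc1, the 3 males lay below the 3 females without overlap (6.82% of all probe sets). Vsig4 read 9.14, 9.53 and 9.07 in C57BL/6J males, against 9.94, 9.84 and 9.90 in C57BL/6J females, a difference of -0.64 (SE 0.20, adjusted p = 0.251). Clec4f read 8.96, 9.32 and 8.97 in C57BL/6J males, against 9.45, 9.35 and 9.32 in C57BL/6J females, where C57BL/6J male 2 nearly reached the lowest female. Cd5l read 8.58, 9.51 and 8.62 in C57BL/6J males, against 9.49, 9.23 and 9.53 in C57BL/6J females, and C57BL/6J male 2 lay above 2 of the females. The count of 0 was the same without each of the 6 C57BL/6J arrays in turn, C57BL/6J male 2 included.

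Whether the sexes differ more in KK than in C57BL/6J was tested with the interaction term, and the test did not show it for any member. By limma 0 of 33 members were called (0.141% of all probe sets), although 14 had an unadjusted p under 0.05 (6.35% of all probe sets). The interaction was below 0 for 29 members (44% of all probe sets), with a median of -0.54, against 0.02 for all probe sets. Cd163 (-0.97, SE 0.28, adjusted p = 0.485), Vsig4 (-0.94, SE 0.28, adjusted p = 0.503), Lyz2 (-0.94, SE 0.28, adjusted p = 0.503) and Mpeg1 (-1.02, SE 0.32, adjusted p = 0.559) came nearest.

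**Figure D3:**
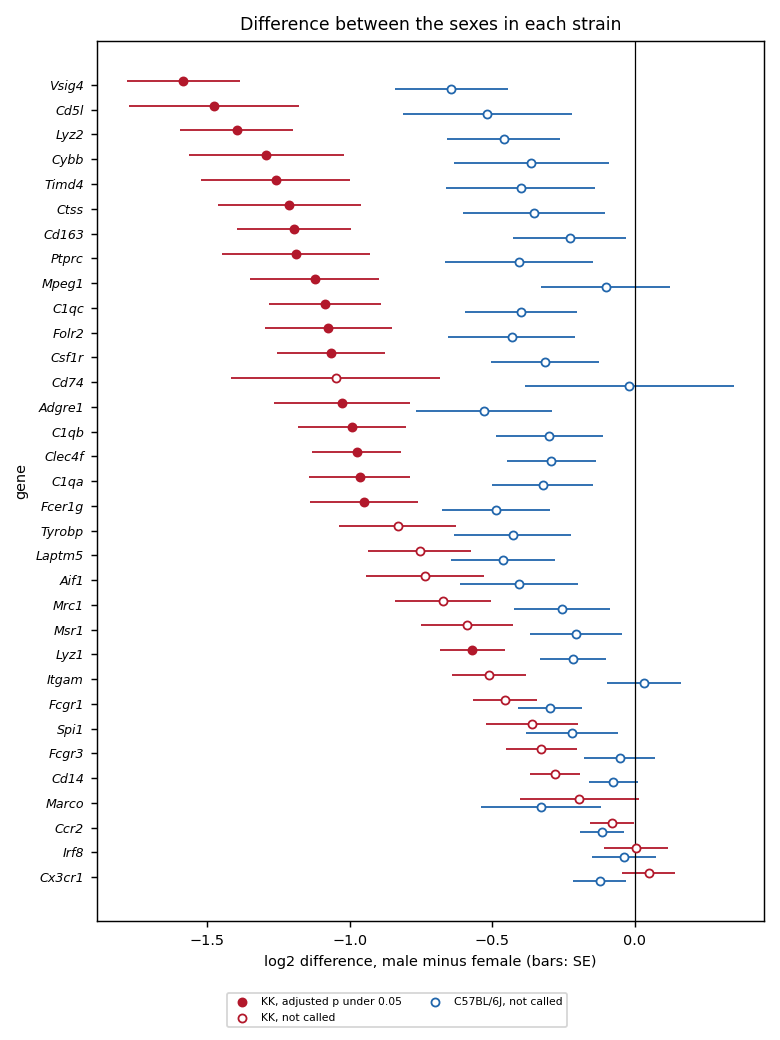
Log2 difference, male minus female (horizontal axis, bars give the SE of the limma fit), of each macrophage gene in KK (red) and in C57BL/6J (blue); filled points passed an adjusted p under 0.05. Nearly all points lie left of 0 in both strains, from -1.58 for Vsig4 in KK, and 18 points are filled, all of them in KK.

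Over both sexes, KK livers differed from C57BL/6J livers in 6 macrophage genes that passed the test. Of 33 members 5 were called lower in KK (6.31% of all probe sets) and 1 higher (5.42% of all probe sets), while 12 had an unadjusted p under 0.05 (22.7% of all probe sets) and 23 differences lay below 0 (46.8% of all probe sets). Those lower were Marco, Laptm5, Adgre1, Clec4f and Fcer1g, and Itgam was higher. The median difference over the members was -0.13, against 0.01 for all probe sets. No member separated all 6 KK mice from all 6 C57BL/6J mice, which 2.66% of all probe sets did upward and 3.32% downward.

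Marco had the widest strain gap. It read 5.86, 5.84 and 5.62 in KK males and 6.20, 5.93 and 5.77 in KK females, against 6.00, 7.07 and 6.28 in C57BL/6J males and 6.78, 6.80 and 6.75 in C57BL/6J females. Every KK mouse except female 1 lay below every C57BL/6J mouse, and the difference was -0.75 (SE 0.15, adjusted p = 0.00575). Laptm5 fell by 0.63 (SE 0.13, adjusted p = 0.00654), with 6.78, 6.88 and 7.28 in KK males and 8.04, 7.71 and 7.44 in KK females, against 7.48, 8.01 and 7.77 in C57BL/6J males and 8.34, 7.98 and 8.32 in C57BL/6J females. Marco and Laptm5 were called under each of the 20 alternatives in which they were tested. Adgre1 (-0.59, SE 0.17, adjusted p = 0.0422), Fcer1g (-0.48, SE 0.13, adjusted p = 0.0353) and Clec4f (-0.41, SE 0.11, adjusted p = 0.0298) were closer to the threshold. Adgre1 ranged over 6.50 to 8.27 in the KK mice, against 7.33, 7.98 and 7.27 in C57BL/6J males and 8.10, 7.99 and 8.06 in C57BL/6J females. Fcer1g ranged over 6.73 to 8.19 in the KK mice, against 7.38, 7.95 and 7.49 in C57BL/6J males and 8.19, 7.85 and 8.24 in C57BL/6J females. For both, the KK males lay below all C57BL/6J mice and KK female 1 lay among the C57BL/6J females or above them. The Clec4f difference came from the males. By limma it was -0.75 in males (adjusted p = 0.0144) and -0.07 in females (SE 0.16, adjusted p = 0.921).

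Itgam, the alpha chain of the CR3 integrin that monocytes, neutrophils and some macrophages carry, went the other way. It read 4.45, 4.51 and 4.53 in KK males and 5.39, 4.82 and 4.80 in KK females, against 4.44, 4.54 and 4.33 in C57BL/6J males and 4.47, 4.37 and 4.38 in C57BL/6J females. It was higher by 0.33 (SE 0.09, adjusted p = 0.0361), and the gap came from the KK females, while the other 3 groups lay within the range of absent transcripts. Its adjusted p was 0.0515 after quantile and 0.06 after cyclic loess normalization, and 0.0146 to 0.0857 with each array left out.

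For these strain calls, the sequence before the start of 4 of the genes is shown, together with Vsig4, which differed most between the sexes of KK, and with the lysozyme pair. The letters are RefSeq's 250 bases before the annotated start in build GRCm38.p6, written 5′ to 3′ along the gene, and come from the C57BL/6J reference. Capitals mark GAGGAA or its reverse complement TTCCTC, a form of the core letters of sites that PU.1 binds. Forms without GAGGAA were not searched, so a window without capitals can still hold such a site.
Clec4f, chr6:83656117-83656366, minus strand: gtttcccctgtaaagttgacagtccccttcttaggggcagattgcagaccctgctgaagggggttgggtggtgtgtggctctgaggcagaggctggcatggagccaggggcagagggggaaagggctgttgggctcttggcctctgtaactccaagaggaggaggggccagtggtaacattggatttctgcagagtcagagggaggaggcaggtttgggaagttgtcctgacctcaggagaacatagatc
Marco, chr1:120505025-120505274, minus strand: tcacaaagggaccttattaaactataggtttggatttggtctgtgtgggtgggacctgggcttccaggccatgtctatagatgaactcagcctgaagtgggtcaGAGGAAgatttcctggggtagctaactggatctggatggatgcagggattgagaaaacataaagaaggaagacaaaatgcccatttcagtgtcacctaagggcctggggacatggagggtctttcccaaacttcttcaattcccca
Laptm5, chr4:130913066-130913315, plus strand: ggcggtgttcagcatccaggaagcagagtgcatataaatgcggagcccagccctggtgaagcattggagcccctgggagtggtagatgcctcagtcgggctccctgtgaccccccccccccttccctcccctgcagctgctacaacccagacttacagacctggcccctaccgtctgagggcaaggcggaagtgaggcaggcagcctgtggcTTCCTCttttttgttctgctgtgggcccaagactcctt
Itgam, chr7:128062390-128062639, plus strand: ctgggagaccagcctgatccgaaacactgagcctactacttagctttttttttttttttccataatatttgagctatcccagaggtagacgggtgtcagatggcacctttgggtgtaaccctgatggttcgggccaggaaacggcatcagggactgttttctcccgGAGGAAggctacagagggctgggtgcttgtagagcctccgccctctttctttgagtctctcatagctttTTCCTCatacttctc
Vsig4, chrX:96293439-96293688, minus strand: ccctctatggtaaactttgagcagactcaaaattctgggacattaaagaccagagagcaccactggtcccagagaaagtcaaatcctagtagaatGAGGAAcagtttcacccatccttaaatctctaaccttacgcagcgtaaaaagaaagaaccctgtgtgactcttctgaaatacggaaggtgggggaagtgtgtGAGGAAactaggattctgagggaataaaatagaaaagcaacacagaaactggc
Lyz2, chr10:117282273-117282522, minus strand: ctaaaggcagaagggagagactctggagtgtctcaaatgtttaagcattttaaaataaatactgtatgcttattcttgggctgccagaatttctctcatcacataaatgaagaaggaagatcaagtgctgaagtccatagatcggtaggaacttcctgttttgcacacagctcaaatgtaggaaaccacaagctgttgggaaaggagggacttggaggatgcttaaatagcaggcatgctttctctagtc
Lyz1, chr10:117292869-117293118, minus strand: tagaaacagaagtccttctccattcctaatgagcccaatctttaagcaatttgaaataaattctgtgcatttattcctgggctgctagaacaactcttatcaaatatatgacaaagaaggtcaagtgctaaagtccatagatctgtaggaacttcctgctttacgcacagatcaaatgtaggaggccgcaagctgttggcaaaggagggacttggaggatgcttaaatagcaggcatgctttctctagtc
Copies of GAGGAA began 146 bases before the start in Marco, 38 in Laptm5, 84 and 15 in Itgam and 155 and 53 in Vsig4. The windows of Clec4f, Lyz2 and Lyz1 held none. Of the other genes called over both sexes, Adgre1 had no window, and Fcer1g, which held no GAGGAA, is not shown. On either strand, 14 of the 29 windows of members held it (48.3%, from 13 of the 25 members with a window), against 23.3% of 32851 windows of all genes. The longer form GAGGAAGT was in 1 member window (3.45%, C1qc) and 2.44% of all windows. The longer form contains the shorter, a match is a description of the letters alone, and windows of a gene with several starts can overlap. The Lyz1 and Lyz2 windows had the same base at 152 of 250 positions when laid side by side without gaps (60.8%), with a longest identical run of 50 bases that ends at the start.

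Between females, few members were called, 6.06% of them higher and 3.03% lower, shares not far from those of all probe sets. By limma 2 members were called higher in KK females (3.18% of all probe sets), Lyz2 and Itgam, and 1 lower (3.31% of all probe sets), Marco, while 10 had an unadjusted p under 0.05 (17.3% of all probe sets). Lyz2 read 10.46, 9.97 and 9.62 in KK females, against 9.46, 9.18 and 9.23 in C57BL/6J females, a difference of 0.73 (SE 0.20, adjusted p = 0.0489). Itgam was higher by 0.60 (SE 0.13, adjusted p = 0.0159), and Marco fell by 0.81 (SE 0.21, adjusted p = 0.0391). For 6 members, Vsig4, Timd4, Lyz1, Lyz2, Itgam and Msr1, every KK female lay above every C57BL/6J female (9.95% of all probe sets), and for Marco every KK female lay below (10.6% of all probe sets). Timd4 read 9.09, 8.40 and 8.00 in KK females, against 7.91, 7.68 and 7.90 in C57BL/6J females, and its difference of 0.66 (SE 0.26, adjusted p = 0.197) was not called. The difference lay below 0 for 12 members (53.5% of all probe sets). The members' median was 0.17, against -0.01 for all probe sets, and it was -0.04 without KK female 1.

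Between males, most members leaned lower in KK. By limma 3 were called lower (3.06% of all probe sets) and 0 higher (2.08% of all probe sets), and 15 had an unadjusted p under 0.05 (16.9% of all probe sets), all of them lower. The difference lay below 0 for 27 members (43% of all probe sets). The called genes were Clec4f, Csf1r and Laptm5. Clec4f read 8.25, 8.15 and 8.59 in KK males, against 8.96, 9.32 and 8.97 in C57BL/6J males, a difference of -0.75 (SE 0.16, adjusted p = 0.0144). Csf1r read 7.60, 7.67 and 7.99 in KK males, against 8.29, 8.82 and 8.40 in C57BL/6J males, a difference of -0.75 (SE 0.19, adjusted p = 0.0393), and Laptm5 fell by 0.78 (SE 0.18, adjusted p = 0.0276). For 15 members every KK male lay below every C57BL/6J male (10.5% of all probe sets), among them the C1q genes C1qa and C1qc, and for Spi1 every KK male lay above (11.2% of all probe sets). The members' median was -0.42, against 0.02 for all probe sets, and Vsig4 was the 1 member for which the KK males all lay below the C57BL/6J males while the KK females all lay above the C57BL/6J females (0.104% of all probe sets).

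Each strain count depended on single mice. Over both sexes the 6 calls became 2 without KK male 1, KK male 2 or C57BL/6J female 1, 3 without KK female 2, C57BL/6J male 2, C57BL/6J female 2 or C57BL/6J female 3, and 10 without KK female 1. In females the 3 calls became 1 without KK male 1, KK male 2, KK female 2 or C57BL/6J female 1 and 0 without C57BL/6J female 2 or C57BL/6J female 3; in males they became 0 without KK male 1, KK male 2 or C57BL/6J male 2, 1 without C57BL/6J male 3, 5 without KK female 3, 6 without KK male 3 and 8 without KK female 1.

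**Figure D4:**
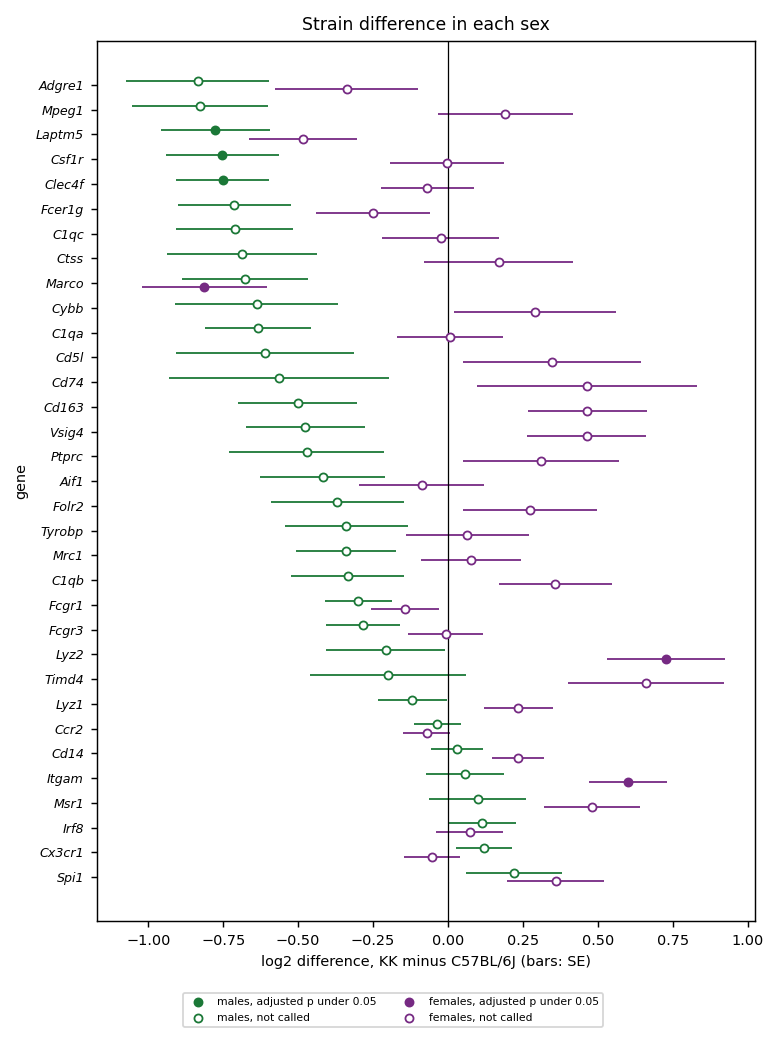
Log2 difference, KK minus C57BL/6J (horizontal axis, bars give the SE of the limma fit), of each macrophage gene in males (green) and in females (purple); filled points passed an adjusted p under 0.05. Male points lie mostly left of 0 and female points on both sides, and Marco and Laptm5 lie left of 0 in both sexes.

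To compare the members with each other across strains, the mean over the 33 members was subtracted from each member on each array, and the result is given as a description with no test. On this scale 5 members, Clec4f, Csf1r, C1qa, Fcer1g and Laptm5, lay lower in all 6 KK mice than in any of the 6 C57BL/6J mice, and no member lay higher in all. Of all probe sets less the same mean, 0.462% lay lower in all KK mice and 0.443% higher, a share that cannot be read directly against the members, since the members make up the mean. Laptm5 lay at -0.03 to 0.22 in KK, against 0.41 to 0.74 in C57BL/6J, and Clec4f at 1.36 to 1.63 in KK, against 1.69 to 1.90 in C57BL/6J. Fcer1g lay at -0.05 to 0.20 in KK, against 0.31 to 0.61 in C57BL/6J. In contrast, its partner adaptor gene Tyrobp averaged -0.46 in KK and -0.45 in C57BL/6J (SD 0.07 and 0.13, n = 6 each). Within the C1q trio, C1qa lay at 1.18 to 1.44 in KK, against 1.46 to 1.62 in C57BL/6J, while C1qb lay at 0.90 to 1.16 in KK, against 0.85 to 0.96 in C57BL/6J. Msr1 averaged 0.44 in KK and 0.02 in C57BL/6J (SD 0.21 and 0.09, n = 6 each), and its ranges touched, at 0.16 to 0.72 in KK and -0.10 to 0.17 in C57BL/6J.

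Other genes of these cells and pathways, outside the 33, were counted in the same fit. Of all probe sets, 1.47% were called lower and 0.698% higher in KK males than in KK females (15.7% unadjusted). Between the strains over both sexes, 6.31% were lower and 5.42% higher in KK (22.7% unadjusted). Between the sexes of C57BL/6J 1.03% were called (8.17% unadjusted). In lists as short as these and those below, a count of 0 or 1 cannot be told from such shares. Of 17 further Kupffer cell genes, 8 were called lower in KK males than in KK females and 0 higher, with a median of -0.60: the properdin gene Cfp (-1.31), the prostaglandin-degrading Hpgd (-1.29), the platelet receptor gene Clec1b (-0.94), the efferocytosis receptor Mertk (-0.88), the ficolin gene Fcna (-0.79), Tfec (-0.70), Siglec1 (-0.67) and the iron exporter Slc40a1 (-0.60). In C57BL/6J 0 of the 17 were called by limma (4 at an unadjusted p under 0.05), and for the strain difference over both sexes 1 was, Hpgd at -0.86. Of 13 lysosome and cathepsin genes 5 were lower in KK males, Ctsc (-1.96), Lgmn (-0.81), Lipa (-0.52), Ctsb (-0.45) and Cst3 (-0.30), and in C57BL/6J males 2 were, Ctsc (-0.91) and Lipa (-0.43). Over both sexes Ctsc (-0.68) and Hexa (-0.41) were lower in KK and Lamp1 (0.26) higher.

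Of 12 immune receptor signalling genes, 1 was called lower in KK males than in KK females, the inhibitory Fc receptor gene Fcgr2b (-0.50), and over both sexes 3 were lower in KK than in C57BL/6J: Fcgr4 (-0.74), Fcgr2b (-0.40) and the phosphatase gene Ptpn6 (-0.20). Of 11 lineage transcription factors, Tfec and Zeb2 (-0.62) were lower in KK males than in KK females, and over both sexes Cebpb was higher in KK by 0.37. Among 10 genes of CSF1 and chemokine ligands and of GM-CSF and its receptor, Csf2rb was lower in KK males than in KK females (-0.82) and higher in KK over both sexes (0.31), and neither Csf1 nor Il34 was called. Of 19 inflammatory products and sensors, 0 differed between the sexes of KK by limma (6 at an unadjusted p under 0.05) and 1 between the strains over both sexes, Ly96, the co-receptor of TLR4 (-0.74). Of 4 phagocyte oxidase genes, 0 were called between the sexes of KK (3 unadjusted) or the strains (1 unadjusted), where Ncf4 had the lowest adjusted p (0.13, adjusted p = 0.164). The same held for 11 class II genes (4 and 0 unadjusted), where H2-Aa had the lowest (-0.60, adjusted p = 0.248). Of 7 complement receptor and protease genes, 0 were called between the sexes of KK (2 unadjusted) and 1 was lower in KK over both sexes, Cr1l (-0.35). Of 11 lipid-associated macrophage genes, Cd9 was higher (0.79) and Atp6v0d2 lower (-1.79) in KK over both sexes, Trem2 and Gpnmb not being among the calls, and between the sexes of KK Cd9 was lower in males (-0.92) and the lipase gene Lpl higher (1.41).

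Genes of other liver cell types were set beside the macrophage genes, whose median difference between the sexes was -0.96 in KK and -0.32 in C57BL/6J. The mean of 15 sinusoidal endothelial genes was 7.93 to 8.12 in KK males, against 8.14 to 8.52 in KK females, and 8.06 to 8.21 in C57BL/6J males, against 8.34 to 8.50 in C57BL/6J females. Of these genes 2 were called lower in KK males, Fcgr2b and Stab2 (-0.40), and 1 in C57BL/6J males, Ehd3 (-0.34). Their median was -0.26 in KK and alike in C57BL/6J at -0.27. An unadjusted p under 0.05 by limma was reached by 10 of them in KK (15.7% of all probe sets) and 8 in C57BL/6J (8.17%). In each strain 14 of the 15 differences lay below 0 (41.3% of all probe sets in KK and 47.3% in C57BL/6J). The mean of 12 stellate cell genes was 6.75 to 7.22 in KK males, against 7.32 to 7.54 in KK females, with Ecm1 as the 1 gene called, and lower. It was 6.91 to 7.28 in C57BL/6J males, against 7.20 to 7.56 in C57BL/6J females. The median difference of the stellate cell genes was -0.37 in KK and -0.32 in C57BL/6J. An unadjusted p under 0.05 by limma was reached by 7 of the 12 in KK and by 5 in C57BL/6J. Over both sexes the endothelial genes Lyve1 (-0.74), Fcgr2b and Oit3 (-0.26) were lower and Ehd3 (0.24) higher in KK, and the stellate cell genes Lum (-0.64) and Col3a1 (-0.33) were lower and Rgs5 (0.90) higher. KK female 1, which was highest for most macrophage genes, also had the highest mean of its group for the endothelial and stellate lists. The part of these cells in the macrophage difference was not tested.

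Genes of other blood cells gave few calls, but several of them read no higher than absent transcripts (3.79 to 4.66) on any array. Examples were S100a8 (4.08 to 4.45), Ly6g (3.82 to 4.13), Cd3d (4.02 to 4.36) and Klrb1c (3.67 to 3.89), while others read above that range. At such values a missing call does not show that a cell type was level. The mean of 13 neutrophil genes was 4.66 to 4.73 in KK males, against 4.61 to 4.69 in KK females, with 0 called between the sexes of KK by limma (1 unadjusted) and 2 higher in KK over both sexes, Csf3r (0.31) and Ngp (0.19). For 12 monocyte genes the mean was at most 5.02 in KK males, against 5.11 to 5.21 in KK females, with 0 called in either comparison (4 and 0 unadjusted). Between the strains S100a4 had their lowest adjusted p (0.15, adjusted p = 0.265). T cell and NK cell genes averaged 4.81 to 4.92 in KK males, against 4.67 to 4.93 in KK females, and 0 of 12 were called in either comparison (1 and 1 unadjusted); for 8 B cell genes the counts were 0 and 0 (1 and 2 unadjusted). Between the strains the lowest adjusted p belonged to Gzma (-0.11, adjusted p = 0.201) and Jchain (0.20, adjusted p = 0.0573). Of 11 dendritic cell genes 0 were called between the sexes of KK (1 unadjusted), and Bst2 (-0.91) and Clec9a (-0.40) were lower in KK over both sexes. Of 6 cholangiocyte genes 0 were called between the sexes of KK (1 unadjusted) and Pkhd1 was lower in KK over both sexes (-0.22). The 4 measured erythroid genes had a mean of 6.94 to 7.12 in KK males, against 6.83 to 6.89 in KK females, and Alas2 was higher in KK males by 0.74, while Slc4a1 (-0.28, adjusted p = 0.28), Epb42 (0.04, adjusted p = 0.845) and Klf1 (0.13, adjusted p = 0.511) were not called. Over both sexes Alas2 (1.19) and Slc4a1 (0.34) were higher in KK. Hepatocyte genes averaged 12.38 to 12.42 in KK males, against 12.44 to 12.48 in KK females, with 1 of 12 called, Apoa1, which was higher in males by 0.32. Over both sexes Asgr2 (0.54) and Apob (0.22) were higher and Apoa1 (-0.34) lower in KK.

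**Figure D5:**
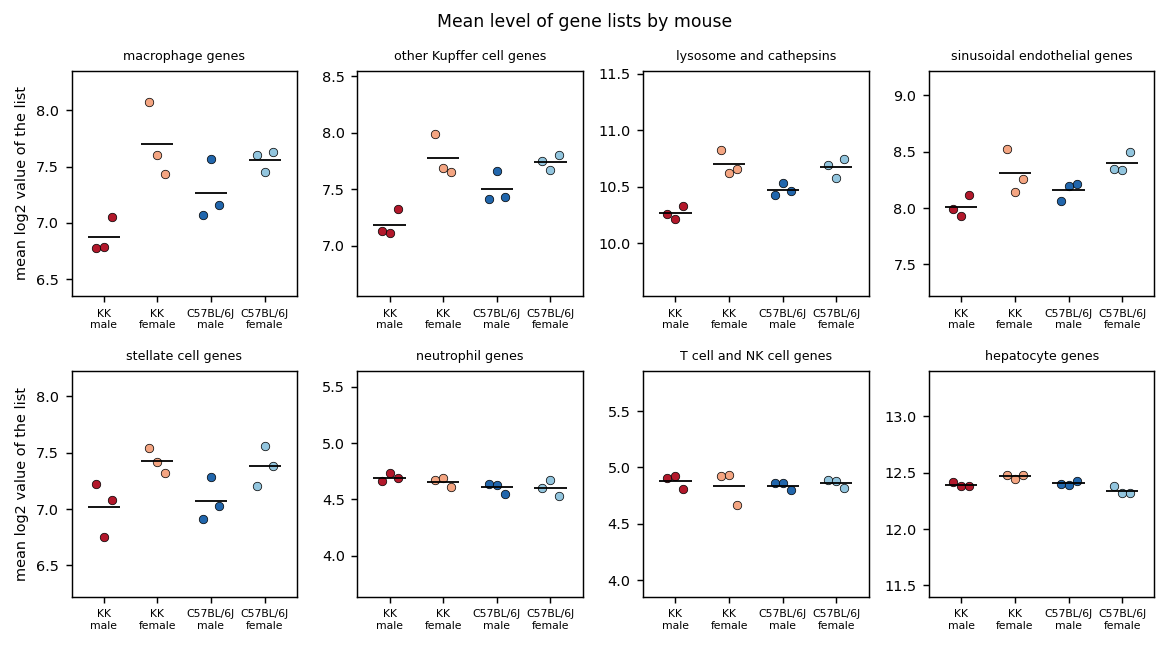
Mean log2 value of each of 8 gene lists (vertical axis, each panel spanning 2 log2 units) in every mouse (points) with the group mean (line), for KK males, KK females, C57BL/6J males and C57BL/6J females from left to right. The KK males sit lowest for the macrophage, other Kupffer cell and lysosome lists, and the neutrophil, T cell and hepatocyte lists stay level. The neutrophil and T cell lists hold genes that read no higher than absent transcripts.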

How the data were processed

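The authors deposited a log2 expression value for each probe set on each array, made with RMA and the affy package per the submitters' processing notes, which give no version. Each array held the RNA of 1 mouse, labelled from 300 ng of total RNA, per the labels' protocols. Scanner files and single probes were not used here, so neither background correction nor probe sequence in KK could be examined, and no slide or scan date was at hand. The small number of arrays also limits the precision. Probe sets are numbered by Entrez gene and were named through the platform table: 18786 had 1 symbol, 6 several and 2420 none. All 33 measured members matched the RefSeq genes of GRCm38.p6.

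All 12 arrays and 21212 probe sets were fitted by lmFit and eBayes of limma 3.58.1 (R 4.3.3), with 1 mean per group and prior degrees of freedom of 3.99. A total of 6 comparisons were tested two-sided, p-values were adjusted over the whole table by the Benjamini-Hochberg method, and a call is an adjusted p under 0.05. Adjusted p, SE and calls are limma's. No filter on dim probe sets was set. The labels do not say whether mice shared a litter, so p-values measure the spread between these mice.

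The rule picks members by symbol and uses no measured value, but the members and the other gene lists were chosen with earlier results of these data known. The rule for named genes gave every member, with values by mouse for the called ones, for Kupffer cell and recruited-cell markers and for the lysozymes. Of each other list it gave the count called and up to 4 called genes of lowest adjusted p in the strain comparison, or the gene of lowest adjusted p where none was called. Listed genes called between the sexes were added after their values were seen. Alternatives were leaving out each array, fitting only the groups compared, the array's interquartile range as a covariate, a replicate block, array weights, a robust prior with an intensity trend, a single probe set for each gene, dropping probe sets below the median mean, and quantile or cyclic loess normalization.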

Additional observations from a re-analysis of the deposited data

Results flagged for a closer look

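A test of the difference itself, limma's interaction term, marked 2 genes of the added lists, as their strain difference was unlike in males and females. Neither is among the 33 macrophage genes. Hpgd, the prostaglandin dehydrogenase gene, had an interaction of -0.89 (SE 0.13, adjusted p = 0.0164), since KK was lower than C57BL/6J with a difference of -1.31 in males (adjusted p = 3.51e-06) and of -0.42 in females (adjusted p = 0.0142). All 3 KK males lay below all 3 C57BL/6J males. The adjusted p was 0.00468 to 0.0591 over its alternatives, and it missed the threshold without KK male 2 (0.0591) or C57BL/6J male 2 (0.0507).

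Atp6v0d2, a subunit gene of the vacuolar proton pump, had an interaction of 2.51 (SE 0.14, adjusted p = 2.43e-06). KK was lower than C57BL/6J, with a difference of -0.53 in males and of -3.04 in females. Between the sexes it differed by 0.01 in KK, where it was not called, and by -2.50 in C57BL/6J. The adjusted p was 7.57e-07 to 3.34e-05 over its 19 alternatives. With 3 mice in a group, single mice were not screened as outliers.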

How the results depend on the processing

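The counts of members called changed as follows. Over both sexes, the 6 strain calls became 10 with array weights (16.6% of all probe sets, against 11.7% with equal weights) and 2 to 10 with each array left out. In females the 3 strain calls became 1 with only the groups compared (4.48% of all probe sets, against 6.5%) and 0 to 3 with each array left out. In males the 3 strain calls became 5 after quantile normalization (6.62% of all probe sets, against 5.15%), 8 among probe sets above the median mean (10.9% of those), 15 with array weights (11.4%) and 0 to 8 with each array left out. The 18 calls between the sexes of KK became 10 with the interquartile range as a covariate (2.39% of all probe sets, against 2.17%), 6 with only the groups compared (0.896%) and 4 to 23 with each array left out. The counts of 0 between the sexes of C57BL/6J and for the interaction stayed at 0 to 0 throughout. With array weights 9.7% of all probe sets were called between the sexes of KK. The cause of these changes was not tested, except that leaving out an array or the other strain leaves fewer arrays to fit. Of 660 values of single called genes under an alternative, 510 kept their call, 150 lost it and 0 changed sign. Vsig4, Lyz2 and Cd163 were called between the sexes of KK under each of 21 alternatives. Among probe sets above the median mean 26 members remained. Mean member levels by group moved by less than 1 SD with either normalization.

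The labels do not state that the replicate numbers of the titles mark litters or days. Same-numbered arrays had deviations from their group means that correlated at -0.36 to 0.48, above 0.1 in 10 of 18 pairs. Among arrays of other groups, 8 of 12 arrays correlated best with their own number. Whether same-numbered arrays shared a handling step was not tested. With a block for the number, 2.94% of all probe sets were called between the sexes of KK, against 2.17% without it. Over both sexes the strain calls were 14.7%, against 11.7%. With the replicate block, 16 members were called between the sexes of KK, 5 for the strain over both sexes, 3 for it in females and 2 for it in males, and 0 in the other 2 comparisons.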
